A study of Mus musculus with 7 samples.

Results

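The C/EBP transcription factor family was described here by the HNF4a regions that the deposited ChIP-seq table assigns to its genes. All rows whose assigned gene was Cebpa, Cebpb, Cebpd, Cebpg, Cebpe or Cebpz were taken, at any distance and with any annotation, which gave 28 of 39704 regions. Cebpa had 16 of them, Cebpg 5, Cebpd 3, Cebpb 2, Cebpe 2 and Cebpz 0. HNF4a was precipitated with antibody ab41898 from livers of mice whose AMP-activated protein kinase was constitutively active (AMPK-CA, the labels' AMPKCA, 3 libraries) and of wild-type mice (WT, 3 libraries). Mice of both genotypes were fed a high-fat diet with doxycycline over 14 days. Each of 3 labelled batches held 1 library of either genotype. The labels give no age, sex or strain, and the sources used here do not state how the active kinase was expressed. The design asks how HNF4a binding differs between the genotypes.

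The 6 libraries held 536027 to 1622087 reads in regions. WT replicate 1 stood apart, with 19.4% of its reads in promoter regions, against 14.2% in AMPK-CA replicate 1 of the same batch and 11.7% to 13.4% in the other 4. Regions lay within 50 kb of 6 of 6 hepatocyte marker genes, 2 of 4 for cholangiocytes, 3 of 3 for endothelium, 0 of 3 for stellate cells and 0 of 3 for Kupffer cells. Binding near a marker gene measures neither its expression nor the share of a cell type. In bulk liver chromatin, fewer cells with a bound region and less binding per cell cannot be told apart. Input reads were not analysed here, so that HNF4a binding was not separated from the number of copies of the DNA.

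C/EBP proteins are basic leucine zipper (bZIP) factors that bind DNA as dimers, either with each other or with related bZIP proteins. In liver, C/EBPα (Cebpa) maintains the metabolic programme of the mature hepatocyte, and C/EBPβ (Cebpb) and C/EBPδ (Cebpd) take part in the acute phase response, C/EBPβ also in gluconeogenesis. C/EBPγ (Cebpg) lacks the activation domains of the other members and pairs with them and with ATF4. C/EBPε (Cebpe) acts mainly in granulocyte maturation, and Cebpz, despite its name, encodes a CCAAT-binding protein without a bZIP domain. HNF4a is a nuclear receptor that binds beside C/EBP factors at many hepatocyte genes.

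HNF4a signal covered the start sites of Cebpa, Cebpb and Cebpd but not that of Cebpg. The table of RefSeq promoters (GRCm38.p6, the assembly that UCSC calls mm10) held 3 of the 6 genes, Cebpa, Cebpb and Cebpg. Their sequences around the start site are given here, whether or not a region covered them. Each runs from 250 bases before the start site to 30 bases from it, 5′ to 3′ in the direction of the gene. Capitals mark the TATA box letters TATAAA and the core TGACG of a cAMP response element on either strand, both chosen after the sequences were seen.
Cebpa (chr7:35119043-35119322, plus strand): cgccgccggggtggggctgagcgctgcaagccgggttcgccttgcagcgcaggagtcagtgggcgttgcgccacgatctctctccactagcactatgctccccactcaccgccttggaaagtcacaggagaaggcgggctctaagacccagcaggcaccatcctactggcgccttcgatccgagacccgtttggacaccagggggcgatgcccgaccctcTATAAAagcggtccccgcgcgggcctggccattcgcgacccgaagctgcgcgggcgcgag
Cebpb (chr2:167688665-167688944, plus strand): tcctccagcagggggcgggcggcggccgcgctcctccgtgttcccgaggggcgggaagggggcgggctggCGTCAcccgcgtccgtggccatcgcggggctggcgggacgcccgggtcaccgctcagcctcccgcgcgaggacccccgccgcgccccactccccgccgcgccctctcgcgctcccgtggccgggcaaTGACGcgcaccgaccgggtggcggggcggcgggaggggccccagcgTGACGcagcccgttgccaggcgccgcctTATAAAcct
Cebpg (chr7:35056537-35056816, minus strand): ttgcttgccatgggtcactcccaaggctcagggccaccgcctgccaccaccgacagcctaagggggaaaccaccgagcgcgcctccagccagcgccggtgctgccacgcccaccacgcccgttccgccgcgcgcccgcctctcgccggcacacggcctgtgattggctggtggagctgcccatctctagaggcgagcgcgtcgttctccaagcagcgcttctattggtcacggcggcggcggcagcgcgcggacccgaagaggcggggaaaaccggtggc

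The Cebpa window lay wholly inside an HNF4a region, with all 280 of its bases covered. The Cebpb window shared 103 bases with the region upstream of the start site and 98 with the region in the exon, and the Cebpg window shared none. TATAAA began 30 bases before the Cebpa start and 21 bases after the Cebpb start as RefSeq gives it, and was held by 13.1% of the 32851 promoter windows of that table. TGACG was found 3 times in the Cebpb window, 1 of them on the reverse strand, and not in the Cebpa or Cebpg window, and 19.9% of all windows held it on either strand. The HNF4 element CAAAGTCCA was absent from all 3 windows and present in 0.457% of all. DR1, the direct repeat bound by HNF4a and related nuclear receptors, searched by exact letters with 1 free base, was likewise absent from the 3 windows and present in 0.0365% of all. The C/EBP letters TTNNGCAA, which include the palindrome TTGCGCAA, were absent from the 3 and present in 10.4% of all, and the palindrome alone in 0.180%. No match says only that these exact letters are not in this window. Outside these windows the HNF4a regions were not searched, because their sequence was not available here. All 3 windows were rich in G and C, at 67.1% for Cebpa, 79.6% for Cebpb and 70.7% for Cebpg, against a median of 52.5% over all windows. They held 29, 44 and 33 CG dinucleotides, in the same order of genes, against a median of 6.

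Cebpa was among the genes with most HNF4a regions in this table. Of 13644 genes named, 80 had more than its 16 regions, and the median gene had 2. These 16 regions ran from 29.6 kb upstream to 30.9 kb downstream of the Cebpa start. Cebpa and Cebpg lie close together, with start sites 62.7 kb apart. Their 21 regions spanned 123 kb (chr7:35027267-35150640), in which the table lists 0 regions of any other gene. The first 4 regions beyond it, between 45.3 and 50.2 kb downstream of the Cebpa start, were assigned to Slc7a10, an amino acid transporter gene. The strongest of these, at 49.0 kb, had 132 ± 12.0 normalized reads in AMPK-CA and 135 ± 33.0 in WT (mean ± SD, n = 3 each, here and below), more than any member region. The gene of a region is the one the table assigns, which does not say on which gene the region acts.

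**Figure D1:**
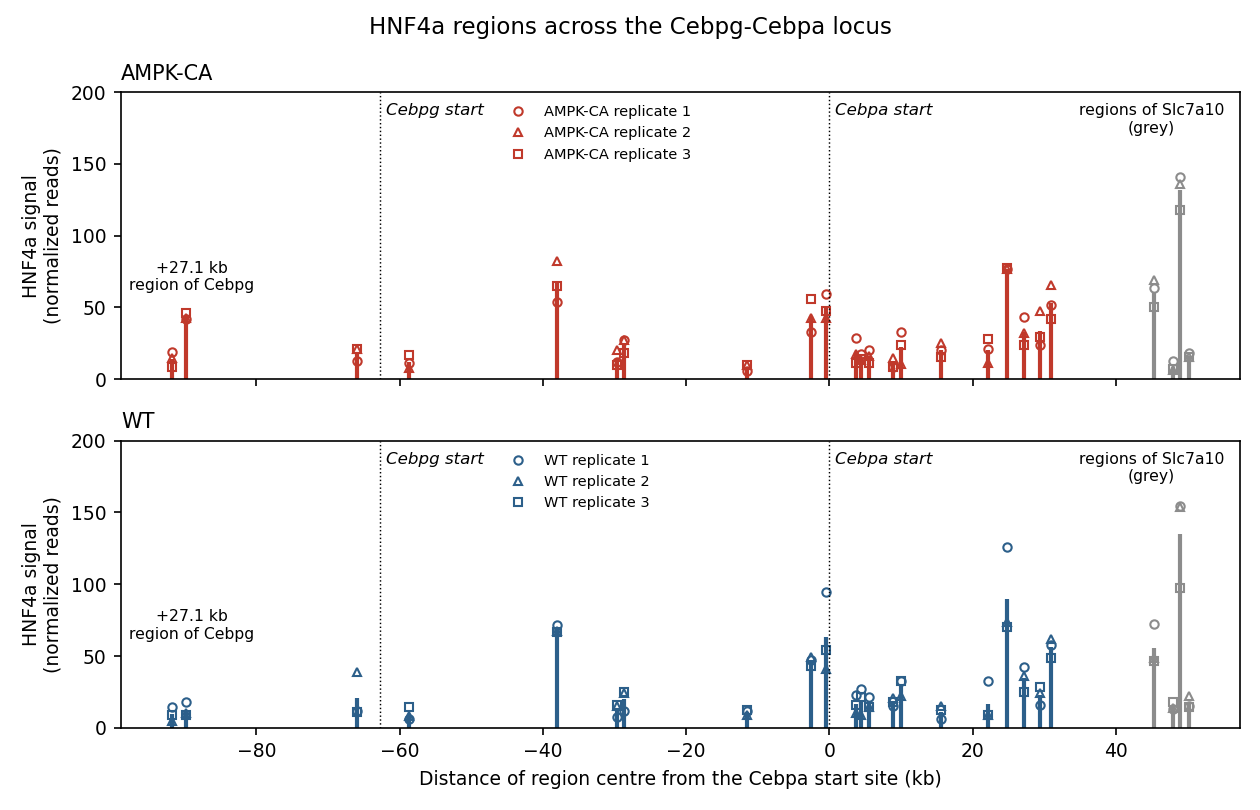
HNF4a signal in normalized reads at the 21 regions of Cebpg and Cebpa and the next 4 downstream, assigned to Slc7a10 (grey). The axis is the distance of the region centre from the Cebpa start in kb, with AMPK-CA above and WT below. Lines are means and symbols the 3 libraries of a genotype. The region 27.1 kb downstream of Cebpg, at the left, averaged 43.5 in AMPK-CA and 12.5 in WT, while the tall regions elsewhere overlap between genotypes.

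Most member regions were of ordinary strength, with a few near the top of the table. The deposited values are reads per region divided by a factor for each library, and are not divided by region length. The median member region had a mean of 19.0 normalized reads over the 6 libraries, against 17.4 for all regions. The strongest lay 24.8 kb downstream of Cebpa (chr7:35143398-35144825, intergenic) and ranked 1192 of 39704. The promoter region of Cebpb (chr2:167687333-167688767) ranked 1297, an intergenic region 24.7 kb upstream of Cebpg (chr7:35080784-35081821) ranked 2052, and the promoter region of Cebpa (chr7:35117898-35119766) ranked 3070. Strong member regions were also long, and per kb of region the order changed. The Cebpa promoter region, of 1869 bp, was stronger than 92.3% of regions by reads but than 40.7% per kb. The region 24.8 kb downstream of Cebpa stayed above 87.3% of regions per kb, and the Cebpg region 24.7 kb upstream above 91.0%. Over the family, the median per kb was 33.0 normalized reads, against 33.3 for all regions. By position, 19 of the 28 were intergenic, 67.9% against 31.3% of all regions, and 2 were promoter regions, 7.14% against 13.2%. The labels of the 16 Cebpa regions were all intergenic but for the promoter.

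**Figure D2:**
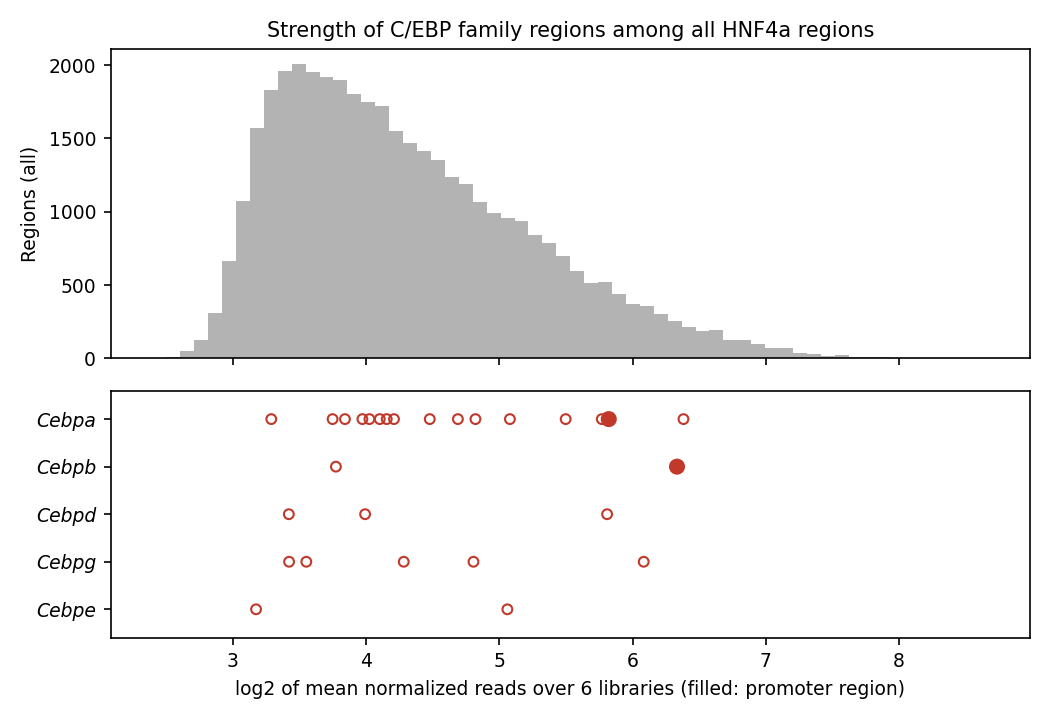
Above, the number of all HNF4a regions by log2 of their mean normalized reads over 6 libraries; below, the member regions of each gene on the same axis, with promoter regions filled. The 28 member regions spread over most of the range, and the strongest region of Cebpa and the promoter of Cebpb lie in its upper tail.

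Cebpg carried the member region with the largest difference between the genotypes, which was called in some fits that take batch as a block, with library weights and without WT replicate 1. It lies 27.1 kb downstream of the Cebpg start and 89.8 kb from that of Cebpa (chr7:35029226-35029793, mm10), in intron 11 of Pepd, which encodes the dipeptidase prolidase. In RefSeq the non-coding RNA gene Gm35484 (chr7:35021050-35029209) lies 17 bp from it. AMPK-CA replicates 1, 2 and 3 had 41.9, 42.7 and 45.8 normalized reads (52, 44 and 33 reads recovered), against 18.0, 10.5 and 8.99 in the WT replicates (27, 14 and 5 reads). All 3 AMPK-CA libraries lay above all 3 WT libraries, with AMPK-CA close together. The means were 43.5 ± 2.10 in AMPK-CA and 12.5 ± 4.84 in WT, a ratio of 3.48.

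The log2 fold change at this region was 1.71 ± 0.40 (SE) by limma on log2(normalized reads + 1.80), and the difference within batch 1, 2 and 3 was 1.14, 1.86 and 2.14. Without the batch block it had an unadjusted limma p of 2.98e-04 and a Benjamini-Hochberg adjusted p of 1.00 over all regions. There 0 members were called at an adjusted p under 0.05, as were 0 of all 39704 regions, or 0%, by limma and by edgeR. With batch as a block, limma gave an adjusted p of 0.0113 and edgeR 0.0225. The blocked limma fit called 1 member, against 0.0579% of all regions, and blocked edgeR called 1, against 0.0604%. It was not called by DESeq2 with the block (adjusted p 1.00), by blocked limma without a mean-variance trend (adjusted p 0.582), or by blocked limma without batch 2 or batch 3 (adjusted p 0.553 and 0.670). Blocked limma without batch 1 did call this region (adjusted p 6.38e-03), among 12 of all regions. Without WT replicate 1 and the block, limma gave an adjusted p of 1.70e-03, with 0.0403% of regions called. Limma with library weights and no block, a fit added after seeing the data, gave 5.85e-05, with 2.32% of regions called.

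The neighbours of this region did not show a difference of that size. A second region in the same Pepd intron, 29.0 kb from the Cebpg start (chr7:35027267-35027777), had 19.3, 14.6 and 8.33 normalized reads in AMPK-CA and 14.7, 4.49 and 9.0 in WT, so that the groups overlapped. Its log2 fold change was 0.55 ± 0.54 (SE). The region in the intron of Cebpg itself (chr7:35053088-35053534) had 12.9, 21.3 and 20.8 in AMPK-CA and 12.0, 38.9 and 10.8 in WT, with WT replicate 2 highest. The strongest Cebpg region, 24.7 kb upstream, had 53.9, 82.5 and 65.3 in AMPK-CA and 71.4, 67.4 and 66.5 in WT, and its log2 fold change was -0.05 ± 0.29. The weakest, 4.0 kb upstream (chr7:35060378-35060700), had 11.9 ± 4.49 in AMPK-CA and 9.54 ± 4.34 in WT. Differences between these regions and the called one were not tested.

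Summed over its 5 regions, Cebpg had 139, 169 and 157 normalized reads in AMPK-CA and 122, 130 and 110 in WT, with no overlap and AMPK-CA higher, as in 3.31% of all 13644 genes. Without the region 27.1 kb downstream the Cebpg sums were 97.4, 126 and 111 in AMPK-CA and 104, 119 and 101 in WT, which overlapped. Cebpd also had separate sums over its 3 regions, lower in AMPK-CA, with 70.0, 62.1 and 69.5 in AMPK-CA against 141, 71.1 and 82.7 in WT, as in 4.17% of all 13644 genes. For Cebpa the sums over 16 regions were 483, 474 and 424 in AMPK-CA and 574, 435 and 448 in WT, also overlapping, a ratio of means of 0.948. Of all genes, 95 had a higher mean sum than Cebpa.

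**Figure D3:**
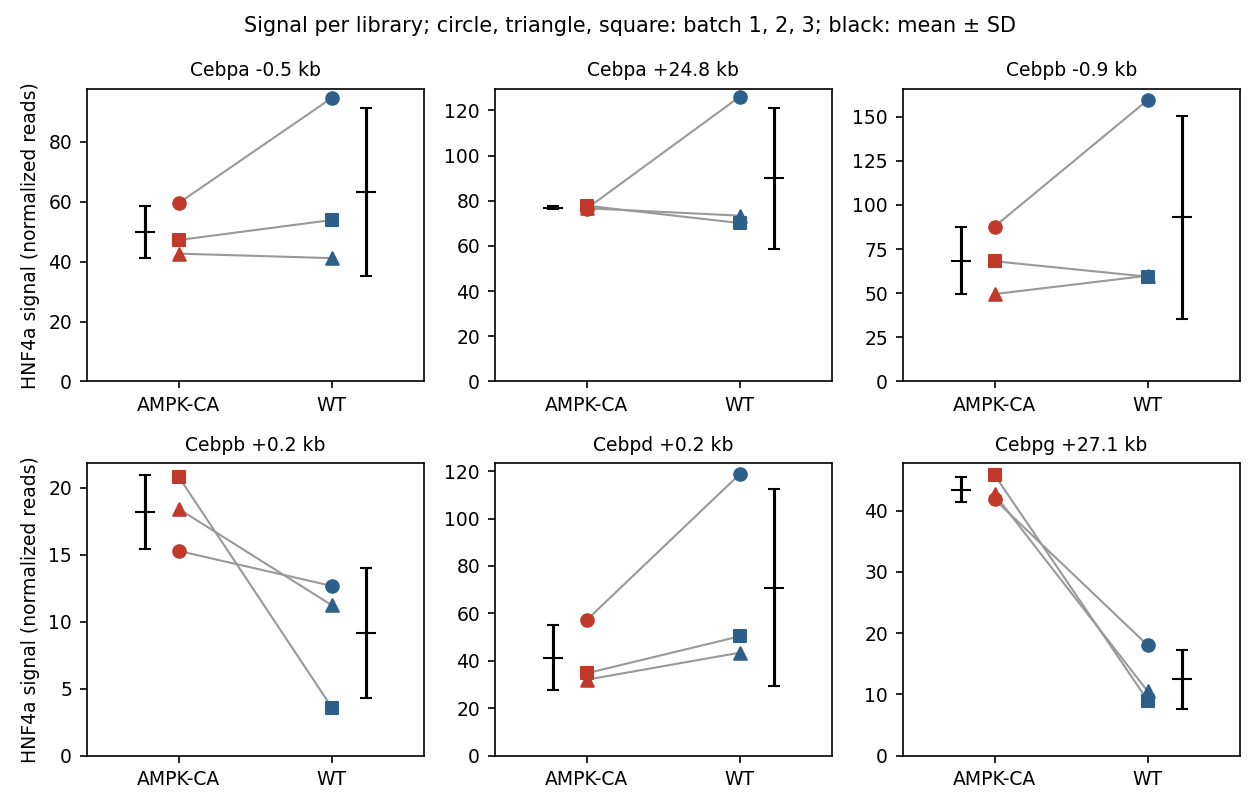
Normalized reads per library at 6 member regions, AMPK-CA left and WT right, with grey lines joining the libraries of a batch and black marks giving mean ± SD (n = 3 each). At the Cebpg region +27.1 kb every line falls towards WT, whereas at Cebpa -0.5 kb, Cebpb -0.9 kb and Cebpd +0.2 kb the WT library of batch 1 stands above the rest.

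At the promoter regions of Cebpa and Cebpb and the region over the Cebpd start the means were lower in AMPK-CA, and the gap was smaller or turned round without WT replicate 1. The Cebpb promoter region ends 148 bp before the gene. The Cebpa promoter region had 59.6, 42.7 and 47.2 normalized reads in AMPK-CA and 94.7, 41.2 and 53.9 in WT. The log2 fold change was -0.26 ± 0.33 (SE) and the within-batch differences were -0.65, 0.05 and -0.19. Apart from WT replicate 1, the libraries of the 2 genotypes covered the same range, and without that library the log2 fold change was 0.06.

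The Cebpb promoter region had 87.7, 49.5 and 68.1 normalized reads in AMPK-CA and 159, 59.9 and 59.3 in WT. WT replicate 1 again lay far above the other libraries. Its log2 fold change was -0.31 ± 0.34, and 0.16 without WT replicate 1. The region over the start and the only exon of Cebpd (chr16:15886638-15888353) had 57.1, 32.0 and 34.7 in AMPK-CA and 119, 43.4 and 50.3 in WT. The AMPK-CA library was the lower of its pair in all 3 batches, with differences of -1.03, -0.42 and -0.51, though the groups overlapped. The Cebpd log2 fold change was -0.65 ± 0.37, with an unadjusted limma p of 0.088 without the block and 0.0197 with it, and it was not called (blocked adjusted p 0.594). Without WT replicate 1 it was -0.22, and within batches 2 and 3 alone -0.47. The promoter share of reads was highest in WT replicate 1, as given above, and its part in these differences was not tested.

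The exon of Cebpb carried a second, weak region over the start site, centred 0.2 kb from it (chr2:167688847-167689358), that went the other way. It had 15.3, 18.4 and 20.8 normalized reads in AMPK-CA (19, 19 and 15 reads) and 12.7, 11.2 and 3.59 in WT (19, 15 and 2 reads). All AMPK-CA libraries lay above all WT libraries, and the lowest value, in WT replicate 3, rested on 2 reads. The log2 fold change was 0.98 ± 0.51, with within-batch differences of 0.24, 0.64 and 2.07. By limma the unadjusted p was 0.066 without the block and 0.0279 with it (blocked adjusted p 0.642). Without batch 3 the blocked log2 fold change was 0.44. It was called by limma when libraries were weighted and no block was used (log2 fold change 1.64, adjusted p 9.30e-03). That fit, chosen after seeing the data, gave WT replicate 3 a weight of 3.46 and called 2 members, among 2.32% of all regions.

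Of the 16 Cebpa regions, 0 were called in the limma, edgeR, DESeq2, weighted and left-out-library fits that were run. The strongest, 24.8 kb downstream, had 76.5, 76.6 and 77.8 normalized reads in AMPK-CA and 126, 73.4 and 70.1 in WT. The AMPK-CA libraries were almost level, and WT differed from them only through replicate 1. Its log2 fold change was -0.17 ± 0.28, and 0.10 without WT replicate 1. Beside it, the region 30.9 kb downstream (chr7:35149772-35150640) had 51.5, 66.0 and 41.7 in AMPK-CA and 57.4, 62.2 and 48.5 in WT, a log2 fold change of -0.09 ± 0.31. The region 2.6 kb upstream (chr7:35116245-35117208) had 43.8 ± 11.3 in AMPK-CA and 46.6 ± 3.20 in WT. For these regions a difference was not detectable at this depth and number of libraries.

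Weaker Cebpa regions differed in both directions. The region 15.6 kb downstream (chr7:35134714-35135072) had 20.1, 25.2 and 15.3 normalized reads in AMPK-CA and 6.0, 15.0 and 12.6 in WT, with no overlap. Its log2 fold change was 0.81 ± 0.47, and 0.48 without WT replicate 1. The region 8.9 kb downstream (chr7:35127937-35128495) had 8.85, 14.6 and 8.33 in AMPK-CA and 15.3, 21.0 and 18.0 in WT. Here AMPK-CA lay below WT without overlap, at a log2 fold change of -0.71 ± 0.47. Both rest on few reads, 7 to 26 per library for the one and 6 to 28 for the other, and their unadjusted limma p was 0.102 and 0.142. The region 29.4 kb downstream (chr7:35148404-35148895) was higher in AMPK-CA within all 3 batches, with 24.1, 47.5 and 29.2 in AMPK-CA and 16.0, 24.0 and 28.8 in WT, and the groups overlapped. The other Cebpa regions were mixed in direction between batches.

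Cebpd and Cebpe had few further regions, and Cebpz none. The region labelled as the end of Cebpd (chr16:15889633-15890005) overlapped Spidr, not Cebpd, in RefSeq. It had 5.63, 10.7 and 9.72 normalized reads in AMPK-CA and 13.3, 10.5 and 14.4 in WT, a log2 fold change of -0.50 ± 0.52. The remaining Cebpd region lay 115 kb downstream, in intron 8 of Spidr (chr16:16002288-16002636), with 7.24, 19.4 and 25.0 in AMPK-CA and 8.67, 17.2 and 18.0 in WT, so that batch 1 was lowest in both genotypes. The 2 regions of Cebpe were intergenic. That 7.9 kb upstream (chr14:54719770-54720420) had 28.2, 40.7 and 26.4 in AMPK-CA and 36.0, 50.9 and 18.0 in WT, and in RefSeq the nearest coding gene was Slc7a8, an amino acid transporter gene, at 1795 bp. That 5.6 kb upstream (chr14:54717551-54717958) had 5.63, 4.85 and 11.1 in AMPK-CA and 8.0, 12.0 and 12.6 in WT, among the weakest 7.16% of all regions. The log2 fold changes at Cebpe were -0.04 ± 0.40 and -0.53 ± 0.61, and neither was past the spread. For Cebpz the table has a region only under its neighbour Cebpzos (chr17:78916519-78916996), which is not a member, with 13.1 ± 1.24 in AMPK-CA and 10.4 ± 6.62 in WT.

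**Figure D4:**
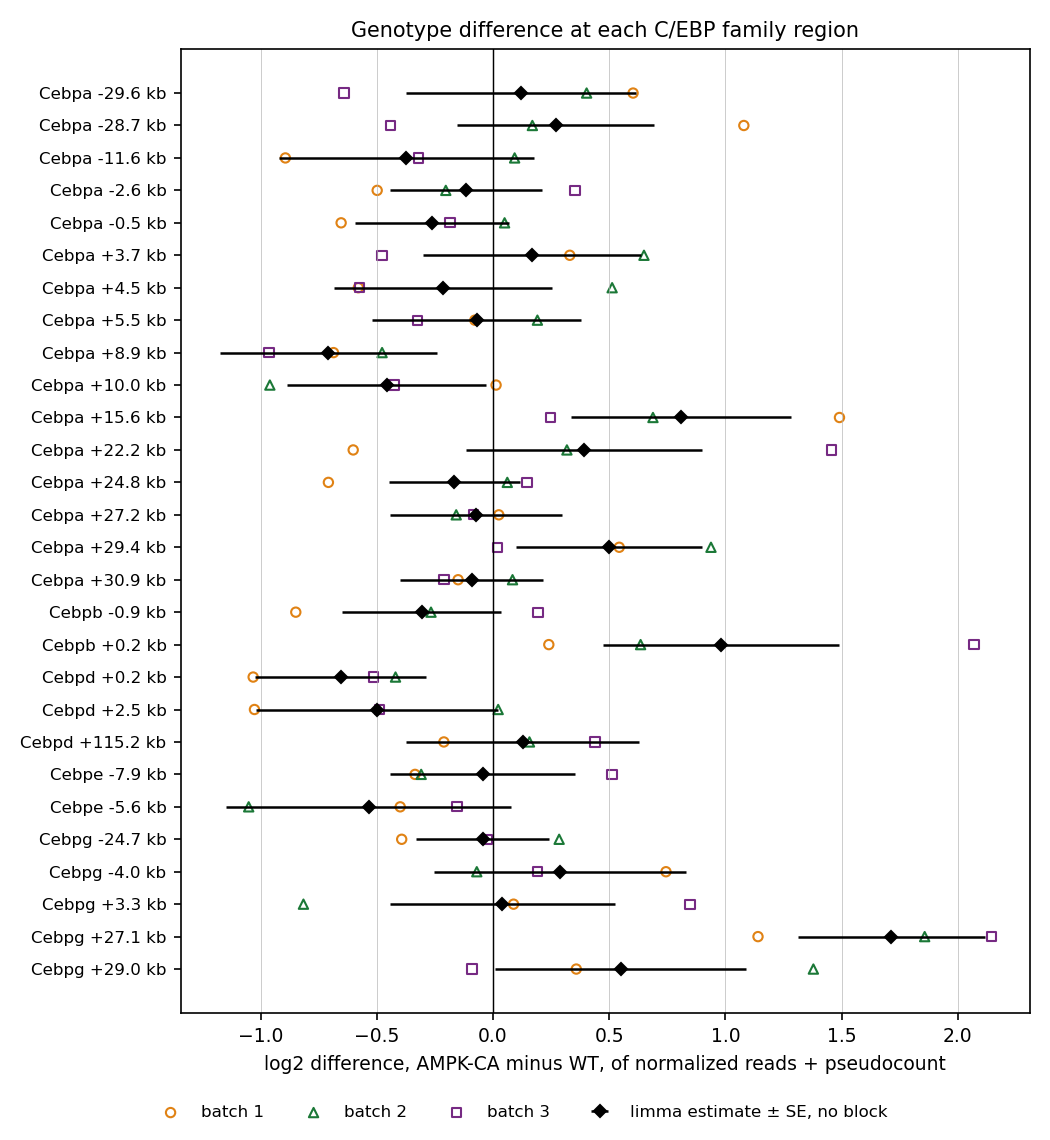
Log2 difference, AMPK-CA minus WT, of normalized reads plus the pseudocount at each of the 28 member regions, named by gene and distance to its start. Black diamonds and bars are limma estimates ± SE without the block, and open symbols the within-batch differences. Only the Cebpg region +27.1 kb has all 3 batches above 1, while most estimates lie within 1 SE of 0 or have batches on both sides.

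Over the family as a whole, differences between the genotypes lay around 0. Of the 28 regions, 12 had a positive and 16 a negative log2 fold change, with a median of -0.06, where 50.6% of all regions were positive and their median was 0.01. The family median was -0.18, 0.09 and -0.09 within batches 1, 2 and 3, and without batch 1 it was -0.01 with 14 of 28 positive. All 3 within-batch differences were positive in 4 members, 14.3% of them, against 13.5% of all regions, and negative in 3, against 14.6%. The AMPK-CA libraries lay entirely above WT at 3 members, against 4.64% of all regions, and entirely below at 1, against 3.27%. With an unadjusted limma p under 0.05 there was 1 member without the block, against 2.46% of all regions, and it was higher, as in 1.46%. With the block there were 3, against 7.27% of all regions, of which 2 were higher and 1 lower, against 4.11% and 3.16%.

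Genes that act with or on C/EBP factors gave no call by limma, without or with the block. Of 14 partners and regulators, 12 had a region within 50 kb, and by the log2 fold change of the strongest region 3 were higher in AMPK-CA and 9 lower, with a median of -0.36. Among all 12760 genes with such a region 41.9% were higher, and the median was -0.08. For the mean difference within batches 2 and 3 the median was -0.32 for the 12, against -0.02 for all genes. This gap was not tested. By limma 0 of the 12 were called without or with the block, against 0.047% of genes with it, and 2 had an unadjusted p under 0.05 without it, against 2.67% of genes. These were Ddit3, which encodes CHOP, a C/EBP-related protein that blocks DNA binding of its partners, and Tef, a bZIP factor gene. The Ddit3 promoter region had 29.0, 50.5 and 29.2 normalized reads in AMPK-CA and 137, 47.2 and 52.1 in WT, with WT replicate 1 far above the rest. Tef had 111 ± 17.1 in AMPK-CA and 164 ± 45.3 in WT, lower in AMPK-CA within all 3 batches. With the block Creb1, the cAMP-responsive factor gene, joined them, so that 3 of 12 had an unadjusted limma p under 0.05, against 8.38% of genes. All 3 were lower in AMPK-CA, as in 4.88% of genes. Creb1 had 27.4, 8.73 and 8.33 normalized reads in AMPK-CA and 52.7, 12.0 and 21.6 in WT. All 3 regions were labelled promoter, and WT replicate 1 was the highest library at each. Without batch 1 the blocked limma log2 fold changes of Ddit3, Tef and Creb1 were -0.35, -0.44 and -0.80. Their adjusted p in that fit was 0.884, 0.667 and 0.831. The part of WT replicate 1 was not tested. Nfil3, a bZIP repressor gene, had 66.4 ± 5.42 in AMPK-CA and 90.2 ± 5.52 in WT without overlap. Nfil3 was lower, as in 3.27% of all regions, a share not counted over strongest regions alone. Its unadjusted limma p was 0.118. Hlf, a further bZIP factor gene and the most strongly bound of the list, had 163 ± 17.3 in AMPK-CA and 162 ± 26.5 in WT.

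Liver genes known to bind or need C/EBP factors likewise showed no call. Of 28, 26 had a region, of which 10 were higher and 16 lower, with a median of -0.09, near the -0.08 of all genes. For the mean difference within batches 2 and 3 the median was -0.13, against -0.02 for all genes. This gap was not tested. By limma 0 were called and 0 had an unadjusted p under 0.05, without or with the block. Gys2, liver glycogen synthase, had 184 ± 12.8 normalized reads in AMPK-CA and 171 ± 3.14 in WT. The promoter region of Pck1, a gluconeogenic enzyme gene driven by C/EBPα and C/EBPβ, had 85.1 ± 15.7 in AMPK-CA and 85.9 ± 21.9 in WT. Foxa2, a factor gene of the hepatocyte network, had 37.9 ± 6.75 in AMPK-CA and 54.7 ± 9.29 in WT without overlap. Ass1, a urea cycle enzyme gene, had 149 ± 14.1 in AMPK-CA and 179 ± 9.48 in WT, also without overlap. AMPK-CA lay entirely below WT in 3.27% of all regions. That share was not counted over the strongest regions of genes, of which 41.9% were higher in AMPK-CA, against 50.6% of all regions. Without the block the unadjusted limma p was 0.127 at Foxa2 and 0.222 at Ass1.

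Among 19836 regions of other genes at or above the median strength, those most like a member over the 6 libraries were found by Pearson's r of log2 values, a description over 6 points that share batches and scaling. For the called Cebpg region they were intron 1 of Ehf (r = 0.994) and exon 3 of Rhobtb1 (r = 0.993), and 0.181% of the regions searched had r above 0.95. The Cebpb promoter was most like the promoters of Tsg101 (r = 0.998) and Spg20 (r = 0.996), and the Cebpd exon most like regions at Tpra1 (r = 0.997) and Gpx4 (r = 0.995). For these 2 members, 1.88% and 1.80% of regions had r above 0.95. The strongest Cebpa region was most like regions at Elmsan1 (r = 0.997) and Pcmtd1 (r = 0.995). The strongest Cebpg region was most like a region in intron 1 of Rora assigned to Ice2 (r = 0.993) and a region assigned to Creld2 (r = 0.989).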

How the data were processed

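HNF4a ChIP libraries from mouse liver, 6 in all, were used. The deposited signal is, per the file headers, 1 column per library and 1 row per region, and the processing notes name the builds GRCm38 and mm10. HOMER, MACS2, SICER, BWA, deepTools, Picard, SAMtools, FastQC and Trim Galore are named in the submitters' processing notes, with no version and no role. The sources used here do not state how regions were chosen. In each library 100% of values came out as whole reads (tolerance 1e-09) once divided by the value of 1 read, and these reads were recovered. The authors' divisors, set to a geometric mean of 1, lay within ratios of 0.989 to 1.04 of median-of-ratios size factors. A change common to most regions is removed by this scale, and total depth is unknown.

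Log2(value + 1.80) was tested (the pseudocount is 0.1 of the median of values above 0) by limma 3.58.1 in R 4.3.3 with a trended prior variance and robust moderation, over all 39704 regions, with Benjamini-Hochberg adjustment and a threshold of 0.05. Genotype was the term. The labelled batch, which pairs the libraries, was the block of the alternative fit, and deviations of same-batch libraries correlated at r of 0.53, 0.49 and 0.05 in batches 1, 2 and 3. Because the unit was a signal, edgeR 4.0.16 and DESeq2 1.42.0 on the recovered reads were alternatives, beside other pseudocounts, scaling, filter, trend, and left-out libraries. Library weights and values without batch 1 were added after seeing the data. The fits were checked on simulated data. Lowest chi-square per degree of freedom between 15 pairs of libraries was 1.58, so none was a duplicate. Each library title has a code of its own, but the labels do not state that each is a separate animal, so p-values measure the spread between these libraries.

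The members and gene lists were chosen with earlier results of these data known. Values are given in full for the 3 strongest regions of each member, promoter regions, and member regions with an unadjusted p under 0.05 in either limma fit or a call in any alternative. Other regions were named after their values were seen. In the gene lists each gene stands for its strongest region within 50 kb.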

Additional observations from a re-analysis of the deposited data

How the results depend on the processing

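The Cebpg region 27.1 kb downstream was called in some but not all fits with the batch block. Without the block it was called only with library weights or without WT replicate 1. The cause was not tested. No other member was called in the alternatives run, except Cebpb +0.2 kb with library weights. Without the block, 0 of all regions were called by limma, edgeR and DESeq2, with 975, 830 and 599 at an unadjusted p under 0.05. With the replicate block the number of all regions called was 23 by limma, 24 by edgeR and 1 by DESeq2, and 0 by limma without the trend, and members called were 1, 1, 0 and 0. Library weights called 922 regions and 2 members. Without batch 1, 2 and 3 in turn, limma with the block called 12, 2 and 7 regions. Leaving out a library or a batch gave 0 to 16 regions called and 0 to 1 members, a family median log2 fold change of -0.16 to 0.04, and 9 to 15 members above 0.

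The log2 fold change of the called region was 1.50 to 2.00 when a library or batch was left out. Over such fits it ran from -0.52 to 0.064 at the Cebpa promoter, -0.32 to 0.10 at Cebpa +24.8 kb, -0.26 to 0.063 at Cebpa +30.9 kb and -0.56 to 0.16 at the Cebpb promoter. It ran from -0.19 to 0.59 at Cebpd +115.2 kb, -0.44 to 0.27 at Cebpe -7.9 kb, -0.21 to 0.13 at Cebpg -24.7 kb and -0.36 to 0.58 at Cebpg +3.3 kb. The lowest with only 1 library left out was -0.54 at the Cebpb promoter and -0.20 at Cebpg -24.7 kb. With the block, Cebpe -7.9 kb had 0.088 without batch 2 and Cebpd +115.2 kb had -0.027 without batch 3. At Cebpg +3.3 kb, 0.04 in the fit reported, it was -0.22 by edgeR and -0.10 with the block, -0.23 by DESeq2 and -0.053 with the block, and -0.0028 with a pseudocount of 0.5 times the median. Scaling to equal totals gave 0.011 at Cebpe -7.9 kb and 0.012 at Cebpg -24.7 kb. Library weights gave 0.076 at Cebpa +24.8 kb, 0.13 at the Cebpb promoter, -0.12 at Cebpd +115.2 kb and 0.44 at Cebpe -7.9 kb. The other 5 of the 13 member regions given in full, the called one among them, kept their direction. Their range was 0.44 to 1.35 at Cebpb +0.2 kb, -0.92 to -0.22 at Cebpd +0.2 kb, -0.76 to -0.23 at Cebpd +2.5 kb and -0.83 to -0.28 at Cebpe -5.6 kb when a library or batch was left out. The shallowest library, with 536027 reads in regions, had 2 to 39 reads per member region, which limits the weaker ones.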
